A study of Mus musculus with 12 samples.

Results

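The 34 genes described here carry glucose into the cardiac muscle cell, break it down to pyruvate and lactate, and store it as glycogen or release it from that store. They were taken by gene symbol from a table of 25319 genes, and each of the 34 had a row. They comprise 2 glucose transporters, 3 enzymes that form and interconvert hexose phosphates, 6 phosphofructokinase subunits and regulators, 10 genes of lower glycolysis, 4 genes of lactate handling, 7 genes of glycogen metabolism and 2 pyruvate dehydrogenase kinases. Of these, 33 had enough reads to be tested, among 14965 genes in all. The brain aldolase Aldoc, with 0 to 14 reads a library, was not tested.

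RNA was sequenced from left ventricles of 12 mice, all male and of the C57BL/6 strain, with 3 mice in each of 4 groups. The TAC dantrolene mice had transverse aortic constriction, which narrows the aortic arch and raises the pressure the ventricle works against, and were given oral dantrolene at 30 mg/kg per day for 4 weeks. The TAC control mice had the constriction without the drug, the sham dantrolene mice had a sham operation and the same drug, and the sham control mice had the sham operation without the drug; the labels name no vehicle for the mice without dantrolene. Surgery took place at an age of 8 weeks in all 12 and the ventricle was taken 4 weeks later, at 12 weeks, and each library was made from 1 mouse. Dantrolene is a ryanodine receptor blocker used clinically against malignant hyperthermia, and the comparisons address how it and pressure overload act on the ventricle.

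Glycolysis splits glucose into pyruvate in the cytosol, and its pace is set mainly by glucose uptake, by hexokinase and by phosphofructokinase. The adult heart draws most of its energy from fatty acids and takes up glucose largely through the insulin-responsive transporter GLUT4, while the fetal and the pressure-loaded heart are known to lean more on glucose. Glycogen is broken down by glycogen phosphorylase, which is switched on by phosphorylase kinase when calcium rises, so that contraction and glucose release are coupled.

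Libraries held 25766378 to 38363106 reads counted to genes, and the 34 genes took 2.19% to 3.35% of them. Levels per library are given as CPM, read counts scaled to a common library size with TMM factors, which serve to compare 1 gene between libraries, and levels of different genes are compared per length, as the deposited FPKM values. Cardiomyocyte markers were present in every library, with 10 markers summing to 80800 to 155500 CPM. In each group 1 library stood apart from the other 2 on the first principal component of all tested genes, which took 41.7% of the variance; these were TAC dantrolene 1, TAC control 1, sham dantrolene 3 and sham control 3, with scores of 34.7 to 85.6 against -50.7 to -22.7 in the other 8. Reads from mitochondrial genes took 1.71% of the total in TAC dantrolene 2 and 22.4% in TAC control 3, with the other libraries between these. In bulk tissue, fewer cells of a type and less RNA per cell cannot be told apart.

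Ranked per length in sham control ventricles, 4 genes of lower glycolysis and the lactate dehydrogenase Ldhb had the 5 highest levels. Gapdh averaged 4232 ± 561 FPKM, Aldoa 2473 ± 76.6, Ldhb 1521 ± 117, Eno3 1484 ± 7.18 and Pgam2 936 ± 3.12 (SD, n = 3), and the intervals of Ldhb and Eno3 overlapped. The muscle forms of the transporter and of phosphofructokinase led their counterparts in these ventricles: the transporter Slc2a4 stood at 173 ± 11.0 FPKM and Slc2a1 at 6.23 ± 0.136, and the phosphofructokinase subunit Pfkm at 353 ± 50.9, Pfkl at 34.1 ± 1.98 and Pfkp at 8.85 ± 0.512. The hexokinases stood level, with Hk1 at 29.2 ± 4.15 FPKM and Hk2 at 30.7 ± 11.3. Gbe1, Phka1, Pfkfb2, Pfkfb3 and Slc16a3 averaged 0.827 to 2.91 FPKM in this group, and Aldoc 0.0367 ± 0.0208.

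Between TAC control and sham control ventricles, the genes of glycogen breakdown and glucose entry averaged lower in the constricted hearts and lower glycolysis averaged near its sham control level. Of the 33 genes, 22 had a fold change below 0, against 42.8% of all genes, and 11 above it, against 57.2%, and their median log2 fold change was -0.20, beside 0.10 over all genes tested. None of the 33 passed an adjusted p of 0.05 in edgeR's quasi-likelihood test with Benjamini-Hochberg adjustment over all genes, and neither did any other gene (0% called). By unadjusted p under 0.05, Phkg1, Pygb and Pfkm were lower, against 3.8% of all genes, and Ugp2 was higher, against 4.13%; DESeq2 and limma called none of the 33 after adjustment. In 11 of the 33 genes all 3 TAC control values lay below all 3 sham control values, where 9.82% of all genes did so: Slc2a1, Slc2a4, Hk1, Hk2, Pfkm, Pkm, Pygm, Pygb, Gys1, Phkg1 and Pdk2. Pgam2 alone lay wholly above, where 7.54% of all genes did so. Mitochondrial reads also separated these groups, at 10.5% to 22.4% in TAC control and 7.10% to 9.33% in sham control, while cardiomyocyte marker sums were 80800 to 143400 CPM in TAC control and 85500 to 102500 in sham control. Activated fibroblast markers were above 0 in 6 of 6 genes (median log2 fold change 2.81), with sums of 30.3, 171 and 195 CPM in TAC control and 15.3 to 19.7 in sham control. Epicardial and mesothelial markers were above 0 in 6 of 6 (median 3.86), with sums of 4.53 to 37.6 CPM in TAC control and 1.59 to 2.89 in sham control. Fibroblast markers were above 0 in 8 of 8 (median 0.77) and heat shock genes in 12 of 13 (median 0.69). Immediate early genes were below 0 in 11 of 12 (median -2.21), with sums of 376 to 787 CPM in TAC control and 970 to 3063 in sham control. The part of these in the members' values was not tested.

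In TAC dantrolene against TAC control ventricles, the same roles averaged higher. Fold changes were above 0 in 24 genes, against 51.8% of all genes, and below 0 in 9, with a median log2 fold change of 0.26 beside 0.02 over all genes. Again 0 of the 33 passed the adjusted threshold in edgeR, beside 0% of all genes; by unadjusted p, Phkg1 and Pfkfb1 were higher, against 1.78% of all genes, and none was lower, against 1.47%. Pkm, Ldhb, Pygb and Phkg1 lay wholly above TAC control, against 2.68% of all genes, and none lay wholly below, against 2.08%. The paired fit put a replicate block by mouse number within each surgery arm, a pairing that the labels do not name. The pairing was chosen from correlations between same-numbered mice in these same counts. Within each arm the libraries apart share a number, so the block also takes in that split. In the paired fit 10 members passed the unadjusted threshold higher, against 6.78% of all genes, and Ugp2 lower, against 5.42%. None passed after adjustment, with an adjusted p of 0.315 for Phkg1 in edgeR. Activated fibroblast markers were below 0 in 6 of 6 genes (median log2 fold change -2.23), with sums of 23.0 to 29.1 CPM in TAC dantrolene and 30.3 to 195 in TAC control. Fibroblast markers were below 0 in 7 of 8 (median -0.76) and heat shock genes in 10 of 13 (median -0.63), and the part of these in the members' values was not tested. Both comparisons use the same 3 TAC control mice, so a value by chance low or high in those mice moves them in opposite directions.

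**Figure D1:**
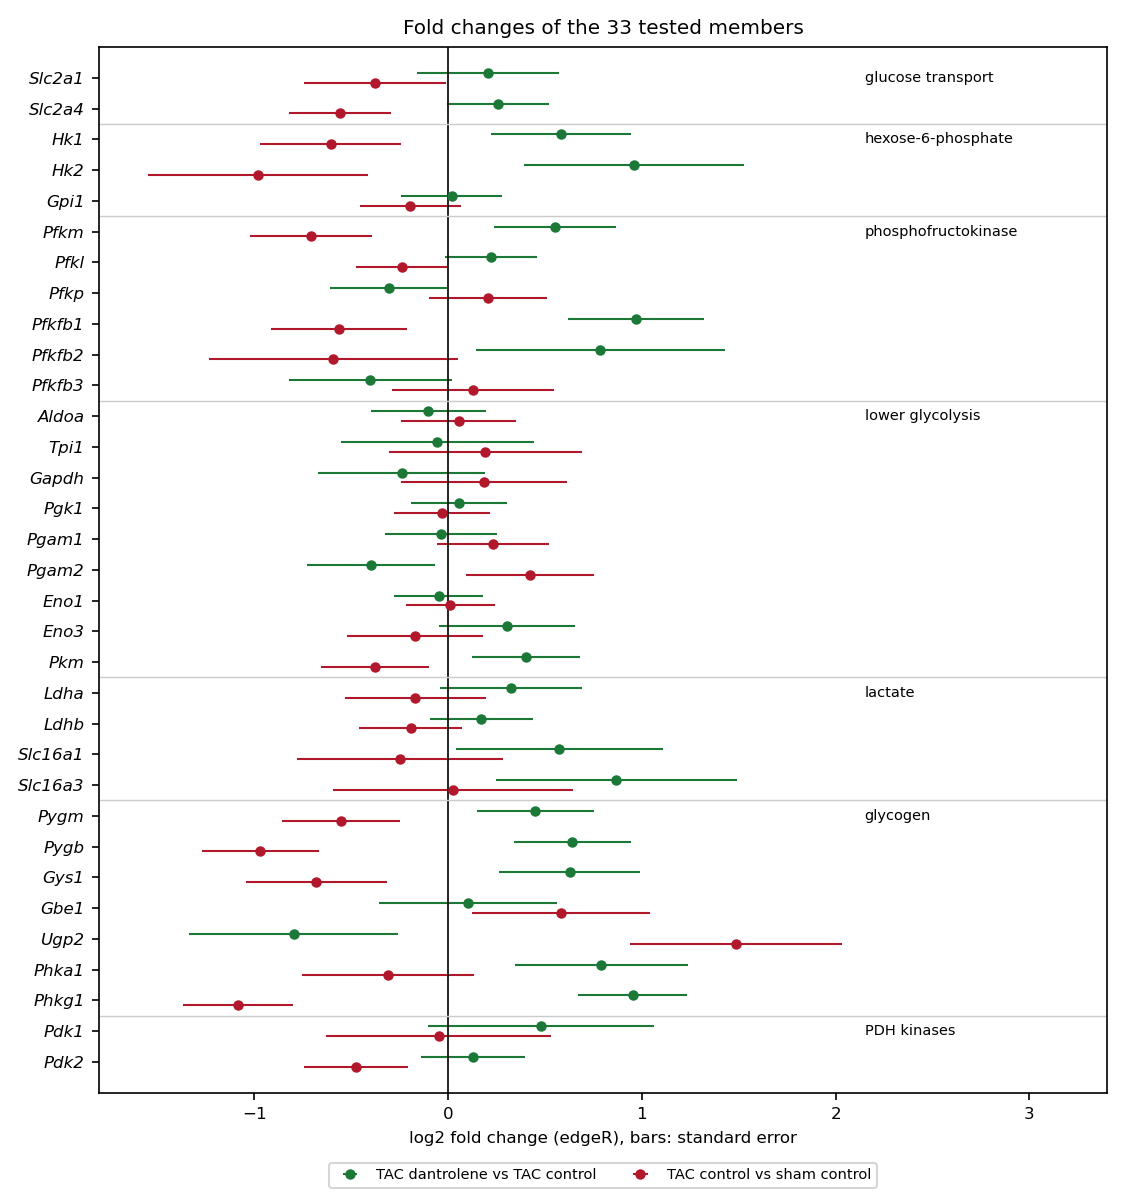
Log2 fold change from edgeR on the horizontal axis, with bars of 1 standard error, for the 33 tested genes grouped by role; green points are TAC dantrolene over TAC control and red points TAC control over sham control. Red points reach -1.09 for Phkg1 and 1.49 for Ugp2, and points of lower glycolysis lie near 0 in both comparisons.

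Glucose enters through 2 transporters in this set. Slc2a4 encodes GLUT4, which moves to the surface under insulin and contraction. It had 404, 349 and 520 CPM in TAC dantrolene ventricles, 393, 377 and 293 in TAC control, 420, 372 and 340 in sham dantrolene, and 494, 517 and 552 in sham control. All 3 TAC control and all 3 sham dantrolene values lay below those of sham control, while TAC dantrolene overlapped TAC control. The log2 fold change was -0.56 ± 0.26 (SE) in TAC control over sham control and -0.47 ± 0.26 in sham dantrolene over sham control. Slc2a1, the basal transporter GLUT1, had 15.1, 16.6 and 26.9 CPM in TAC dantrolene, 15.6, 19.0 and 16.1 in TAC control, 15.6, 17.9 and 42.4 in sham dantrolene, and 21.4, 19.9 and 24.6 in sham control. TAC control lay just below sham control, and the highest value of the 12 was sham dantrolene 3, a library that stands apart. In TAC dantrolene and TAC control the library apart held the lowest Slc2a1 value instead. Neutrophil markers summed to 83.0 CPM in sham dantrolene 3 and to 2.41 to 25.4 in the other libraries, and their part in Slc2a1 was not tested.

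Hexokinase traps glucose in the cell as glucose 6-phosphate, with Hk2 the insulin-responsive muscle form and Hk1 the form found in most tissues. Hk2 had 51.2, 222 and 265 CPM in TAC dantrolene, 58.0, 104 and 115 in TAC control, 180, 183 and 59.8 in sham dantrolene, and 203, 223 and 120 in sham control. The lowest value of each group was the library apart, and the groups overlapped except that TAC control lay wholly below sham control. The log2 fold change of Hk2 was 0.96 ± 0.57 in TAC dantrolene over TAC control and -0.98 ± 0.57 in TAC control over sham control. Without the 4 libraries apart, which leaves 2 mice a group, the same folds were 1.16 and -0.99, and edgeR called both (adjusted p = 0.0237 and 0.0303). Hk1 was likewise lowest in the library apart of each group, with 82.1, 229 and 137 CPM in TAC dantrolene, 84.3, 118 and 97.6 in TAC control, 146, 144 and 78.9 in sham dantrolene, and 148, 162 and 145 in sham control. The isomerase Gpi1, which turns glucose 6-phosphate into fructose 6-phosphate, averaged 801, 790, 717 and 904 CPM in the same 4 groups.

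Phosphofructokinase commits the sugar to glycolysis. Its muscle subunit Pfkm had 676, 1191 and 1141 CPM in TAC dantrolene, 653, 793 and 605 in TAC control, 1080, 1011 and 662 in sham dantrolene, and 1114, 1185 and 1050 in sham control. TAC control lay wholly below sham control and TAC dantrolene overlapped both, its low value being the library apart. The log2 fold change was 0.55 ± 0.32 in TAC dantrolene over TAC control and -0.71 ± 0.32 in TAC control over sham control (edgeR, adjusted p = 0.9997 and 0.619). The platelet-type subunit Pfkp, one of the forms found outside muscle, had 27.9, 47.1 and 39.6 CPM in TAC dantrolene, 31.0, 47.8 and 63.0 in TAC control, 42.5, 45.9 and 28.1 in sham dantrolene, and 42.3, 38.5 and 42.0 in sham control, with the groups overlapping in each comparison. The liver-type Pfkl averaged 136, 116, 114 and 137 CPM.

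The bifunctional enzymes Pfkfb1, Pfkfb2 and Pfkfb3 set the level of fructose 2,6-bisphosphate, the main activator of phosphofructokinase, and Pfkfb2 is the form best known in heart. Pfkfb1 had 13.9, 7.43 and 13.7 CPM in TAC dantrolene, 8.97, 4.79 and 4.12 in TAC control, 9.36, 9.86 and 10.8 in sham dantrolene, and 8.29, 10.3 and 7.71 in sham control. TAC dantrolene 2 lay inside the TAC control range, so those groups overlapped, at a log2 fold change of 0.97 ± 0.35 (edgeR, unadjusted p = 0.0168, adjusted p = 0.9997). Pfkfb2 was lowest in the library apart of each group and ranged between 1.78 and 17.2 CPM, with a log2 fold change of 0.79 ± 0.64 in TAC dantrolene over TAC control and -0.59 ± 0.64 in TAC control over sham control. Pfkfb3 lay between 3.97 and 13.3 CPM and was the 1 gene of the 33 wholly lower in TAC dantrolene (3.97, 7.11 and 7.99 CPM) than in sham dantrolene (12.1, 8.62 and 8.68 CPM).

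Lower glycolysis, from aldolase to pyruvate kinase, averaged close to its sham control level. Its 9 tested genes had log2 fold changes of -0.40 to 0.40 in TAC dantrolene over TAC control and -0.38 to 0.42 in TAC control over sham control, with medians of -0.05 and 0.06. The muscle phosphoglycerate mutase Pgam2 had 1231, 735 and 623 CPM in TAC dantrolene, 1022, 1399 and 993 in TAC control, 682, 689 and 1001 in sham dantrolene, and 832, 784 and 930 in sham control. All 3 TAC control values lay above sham control, at a log2 fold change of 0.42 ± 0.33. Eno3, the muscle enolase, had 3714, 2555 and 2007 CPM in TAC dantrolene, 2909, 2178 and 1612 in TAC control, 2155, 2088 and 3173 in sham dantrolene, and 2464, 2305 and 2758 in sham control. It was highest in the library apart of every group, and the groups overlapped.

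Pyruvate kinase, the last step of the pathway, is encoded in heart by Pkm. It had 1730, 2099 and 1574 CPM in TAC dantrolene, 1504, 1469 and 1113 in TAC control, 1554, 1387 and 1368 in sham dantrolene, and 1732, 1654 and 1917 in sham control. TAC dantrolene lay wholly above both TAC control and sham dantrolene, while TAC control and sham dantrolene each lay wholly below sham control. The log2 fold changes were 0.40 ± 0.28 in TAC dantrolene over TAC control and -0.38 ± 0.28 in TAC control over sham control. Gapdh had 4170 to 11320 CPM in TAC dantrolene and 6908 to 8552 in TAC control, and without the libraries apart it was called lower in TAC dantrolene (log2 -0.85; edgeR, adjusted p = 0.0468). Gapdh, Aldoa, Pgk1, Pgam1 and Ldha have near-identical pseudogenes, and how reads matching both were counted is not given in the sources used here.

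Lactate dehydrogenase interconverts pyruvate and lactate, with Ldhb the form favoured by heart, and Slc16a1 and Slc16a3 carry lactate across the membrane. Ldha had 1951, 1100 and 926 CPM in TAC dantrolene, 1467, 920 and 793 in TAC control, 1080, 922 and 1403 in sham dantrolene, and 1169, 1056 and 1347 in sham control, with the library apart highest in each group. Ldhb ranged from 1649 to 2249 CPM over the 12 libraries, and TAC dantrolene (2021 to 2242) lay just above TAC control (1649 to 2018). Slc16a1 averaged 194 ± 90.95 CPM in TAC dantrolene, 130 ± 62.4 in TAC control, 126 ± 70.9 in sham dantrolene and 155 ± 34.3 in sham control (SD, n = 3), and Slc16a3 did not exceed 13.99 CPM in any library. Fold changes of all 4 genes were above 0 in TAC dantrolene over TAC control, none past the unadjusted threshold, which Slc16a1 passed in the paired fit (0.59 ± 0.23; edgeR, unadjusted p = 0.0287).

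In TAC control over sham control, the lowest and the highest fold change of the 33 both belonged to genes of glycogen metabolism, Phkg1 and Ugp2. Phkg1 encodes the catalytic gamma subunit of muscle phosphorylase kinase, the enzyme that activates phosphorylase. It had 11.5, 15.9 and 15.7 CPM in TAC dantrolene, 6.93, 8.495 and 6.82 in TAC control, 20.2, 17.2 and 10.7 in sham dantrolene, and 14.3, 17.6 and 15.3 in sham control. Each TAC control value lay below each of the other 9, and the library apart was the lowest of its group in TAC dantrolene and in sham dantrolene. The log2 fold change was 0.95 ± 0.28 in TAC dantrolene over TAC control (edgeR, unadjusted p = 0.00536, adjusted p = 0.9997) and -1.09 ± 0.28 in TAC control over sham control (edgeR, unadjusted p = 0.00227, adjusted p = 0.453). In sham dantrolene over sham control it was 0.03 ± 0.28. Leaving out each library in turn kept the 2 folds in constricted hearts between 0.87 and 1.07 and between -1.20 and -0.999.

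Phkg1 shares 630 annotated exon bases with Sumf2 on the opposite strand, and the strand setting of the counts is not given in the sources used here. Other members share more. On the same strand Pfkfb2 shares 1262 bases with Gm29427 and Pkm 767 with Gm49759. On the opposite strand Pfkp shares 748 with Pitrm1 and Gpi1 741 with Gm26762. Values of those partners are not given. Sumf2, looked up after the values of Phkg1 were seen, had 7.39 to 14.3 CPM in TAC dantrolene, 8.61 to 9.99 in TAC control and 8.54 to 11.6 in sham control, with log2 fold changes of 0.09 ± 0.30 in TAC dantrolene over TAC control and -0.12 ± 0.30 in TAC control over sham control. The regulatory alpha subunit Phka1 had 9.80, 25.9 and 27.0 CPM in TAC dantrolene, 8.66, 11.7 and 15.8 in TAC control, 15.02, 17.8 and 5.99 in sham dantrolene, and 15.1, 17.5 and 12.4 in sham control. Its lowest value in each group was the library apart, and TAC control overlapped both TAC dantrolene and sham control.

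Glycogen phosphorylase frees glucose 1-phosphate from glycogen, and the heart carries the muscle form Pygm and the brain form Pygb. Pygb had 794, 1192 and 1033 CPM in TAC dantrolene, 732, 668 and 533 in TAC control, 1402, 977 and 851 in sham dantrolene, and 1253, 1263 and 1268 in sham control. TAC control lay wholly below each of the other 3 groups. Its log2 fold change was 0.64 ± 0.30 in TAC dantrolene over TAC control and -0.97 ± 0.30 in TAC control over sham control (edgeR, unadjusted p = 0.0528 and 0.00719, adjusted p = 0.9997 and 0.506). Pygm had 953, 1589 and 1416 CPM in TAC dantrolene, 873, 1167 and 854 in TAC control, 1322, 1150 and 887 in sham dantrolene, and 1419, 1452 and 1378 in sham control. TAC control and sham dantrolene each lay wholly below sham control, and TAC dantrolene overlapped TAC control through its library apart.

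Glycogen synthase, encoded in muscle by Gys1, runs the opposite reaction. It had 65.3, 173 and 123 CPM in TAC dantrolene, 66.6, 99.1 and 68.8 in TAC control, 115, 106 and 57.4 in sham dantrolene, and 122, 133 and 121 in sham control, so that in TAC control and sham dantrolene both synthase and Pygm lay wholly below sham control. Ugp2 makes UDP-glucose, the unit that synthase adds, and averaged the other way: it had 40.0, 65.6 and 141 CPM in TAC dantrolene, 42.5, 168 and 217 in TAC control, 57.2, 69.0 and 38.8 in sham dantrolene, and 53.5, 52.4 and 46.7 in sham control. TAC control 2 and 3 and TAC dantrolene 3 were high and TAC control 1 lay below every sham control library, so the groups overlapped at a log2 fold change of 1.49 ± 0.55 (edgeR, unadjusted p = 0.0183, adjusted p = 0.552). The branching enzyme Gbe1 split the same way, with 12.3, 17.6 and 33.8 CPM in TAC dantrolene, 8.26, 21.4 and 29.6 in TAC control, 14.1, 15.99 and 9.51 in sham dantrolene, and 13.9, 15.4 and 10.3 in sham control.

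The libraries with high Ugp2 also had high levels of 1 stress transcript and low levels of 1 clock transcript for their groups. Each is 1 gene of a longer list, and both were looked at after the values of Ugp2 were seen. The inducible chaperone Hspa1a had 10.5, 14.7 and 130 CPM in TAC dantrolene and 7.99, 156 and 157 in TAC control, against 4.27 to 13.1 in the 6 sham libraries. Arntl, a core clock gene, had 6.28, 8.52 and 0.877 CPM in TAC dantrolene, 5.33, 1.33 and 1.79 in TAC control, and at most 2.46 in the sham libraries, so that the 3 TAC libraries with lower Ugp2 were the ones above the sham range. The sums of the whole lists followed this split in part. The 14 clock genes summed to 198, 409 and 592 CPM in TAC dantrolene and 209, 548 and 541 in TAC control. The TAC libraries with high Ugp2 thus had the higher clock sums, the opposite direction to Arntl. The 13 heat shock genes summed to 4630, 5459 and 5292 CPM in TAC dantrolene and 5285, 8769 and 7283 in TAC control. Their sums were the highest of the 12 in TAC control 2 and 3, while TAC dantrolene 3 lay between the other libraries of its group. Fibroblast marker sums were 557 to 817 CPM in TAC dantrolene, 560, 1394 and 1576 in TAC control, and 523 to 851 in the sham libraries, so TAC control 2 and 3 were the highest of the 12. The part of these in the glycogen values was not tested.

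**Figure D2:**
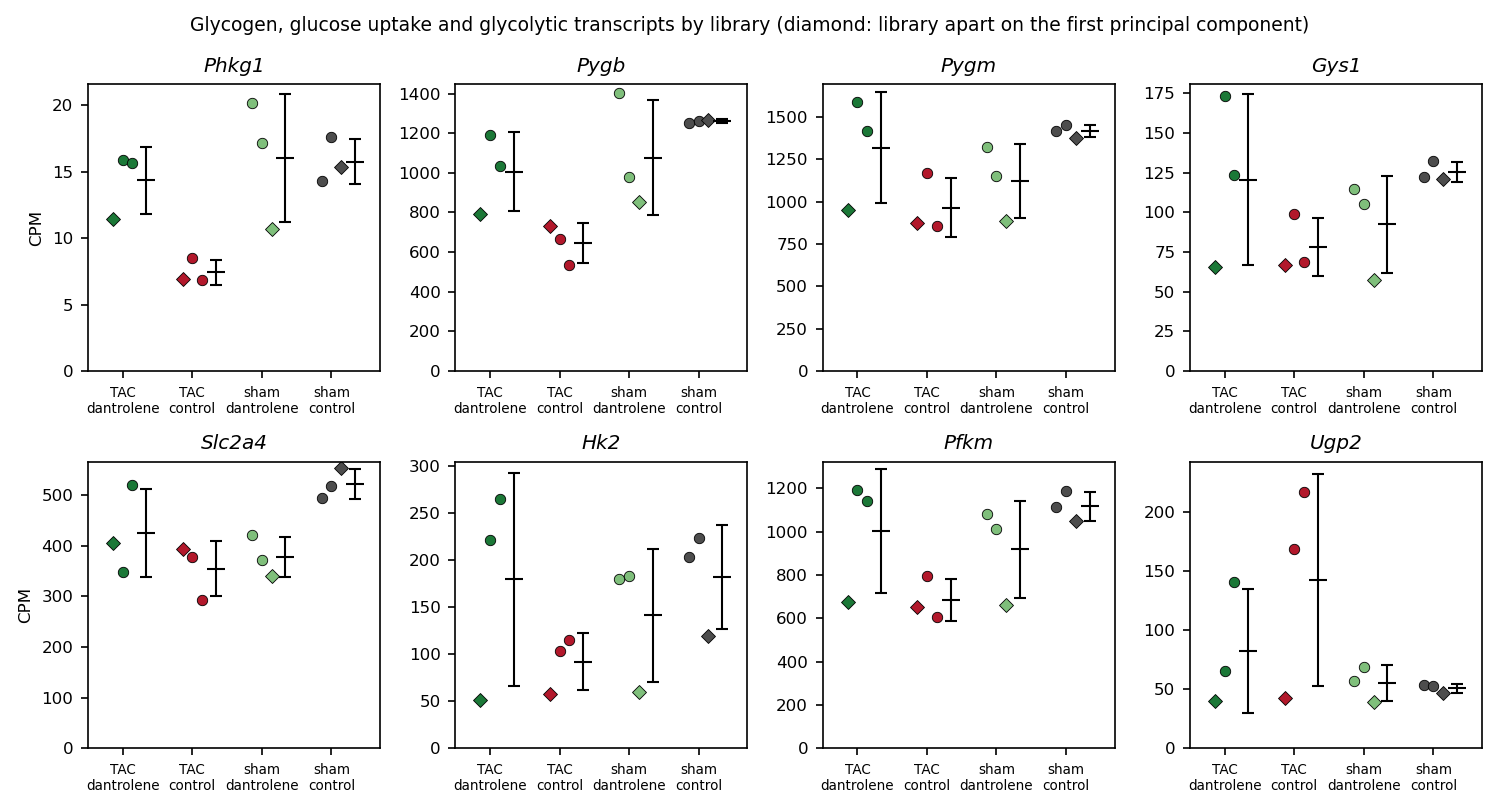
CPM on the vertical axis for 8 genes of glycogen metabolism, glucose entry and glycolysis in each of the 12 libraries; points are mice, diamonds the library of each group that stands apart, and bars the mean with 1 SD. The 3 TAC control points of Phkg1, at 6.82 to 8.495, lie below the other 9, while TAC control points of Ugp2 spread between 42.5 and 217.

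The promoters of 4 of these genes are shown because their transcripts gave the lowest unadjusted p of the 33 in TAC control over sham control or, for Pgam2, the one range wholly above sham control. Sequences are from RefSeq on GRCm38.p6, 5′ to 3′ on the gene's strand, and cover up to 250 bases before the annotated RefSeq start, shortened where annotated exons begin. Capitals mark ACGTG, the core of the hypoxia response element, GCGTG, a form of the same core, or a MEF2 consensus, on either strand (CACGT and CACGC are the reverse complements of ACGTG and GCGTG). The Phkg1 window, chr5:129879089-129879338 on the minus strand, lies 19461 bases from the start of the gene's longest annotated span and holds none of them. Those of Pygb, chr2:150786546-150786734, and Ugp2, chr11:21371268-21371459 on the minus strand, hold both cores, and that of Pgam2, chr11:5803797-5804046 on the minus strand, holds the MEF2 consensus.
Phkg1: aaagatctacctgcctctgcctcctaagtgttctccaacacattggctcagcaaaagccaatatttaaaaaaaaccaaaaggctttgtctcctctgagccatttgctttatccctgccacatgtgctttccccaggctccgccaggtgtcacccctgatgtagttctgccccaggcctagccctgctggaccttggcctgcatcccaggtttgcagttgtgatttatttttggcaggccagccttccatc
Pygb: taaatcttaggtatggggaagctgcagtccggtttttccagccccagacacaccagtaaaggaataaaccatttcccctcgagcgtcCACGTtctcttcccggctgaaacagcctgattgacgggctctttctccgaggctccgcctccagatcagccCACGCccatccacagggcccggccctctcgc
Ugp2: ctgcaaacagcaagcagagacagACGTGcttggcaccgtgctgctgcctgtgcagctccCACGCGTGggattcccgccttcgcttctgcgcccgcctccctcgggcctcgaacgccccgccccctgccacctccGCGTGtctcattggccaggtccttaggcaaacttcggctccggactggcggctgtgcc
Pgam2: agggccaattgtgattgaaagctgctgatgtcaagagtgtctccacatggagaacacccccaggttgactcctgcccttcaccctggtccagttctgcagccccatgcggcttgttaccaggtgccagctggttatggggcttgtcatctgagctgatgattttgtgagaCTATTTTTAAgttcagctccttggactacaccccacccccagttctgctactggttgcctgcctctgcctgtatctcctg

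Promoter entries were found for 33 of the 34 genes, 53 windows in all. ACGTG occurred in 37.7% of these windows, against 16.6% of the 32851 mouse promoter windows of the same length, and 16 of the 33 genes had it in at least 1 window. GCGTG occurred in 49.1% against 28.2%, the E-box CACGTG, which contains ACGTG, in 11.3% against 6.02%, and the MEF2 consensus in 3.77% against 1.69%. Genes with several starts contribute several overlapping windows, and a match describes the letters and not a bound site.

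The pyruvate dehydrogenase kinases inhibit pyruvate dehydrogenase, which turns pyruvate into acetyl-CoA in the mitochondrial matrix. Pdk2 had 538, 574 and 567 CPM in TAC dantrolene, 614, 534 and 387 in TAC control, 642, 544 and 509 in sham dantrolene, and 646, 748 and 741 in sham control. TAC control and sham dantrolene each lay wholly below sham control, at log2 fold changes of -0.48 ± 0.27 and -0.33 ± 0.27. Pdk1 spanned 17.4 to 89.1 CPM and was lowest in the library apart of every group.

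Ratios of 2 isoforms within a library do not depend on how libraries are scaled, and 3 of the 10 pairs examined separated groups. No background share from other gene pairs is given. With 3 mice a group an exact permutation test cannot go below p = 0.1. Over 10 pairs and several comparisons some separations can therefore arise by chance, and whether these exceed that was not tested. Per length, Pfkp stood at 0.0284, 0.0272 and 0.0239 of Pfkm in TAC dantrolene, 0.0328, 0.0414 and 0.0716 in TAC control, 0.0271, 0.0313 and 0.0292 in sham dantrolene, and 0.0261, 0.0224 and 0.0275 in sham control. The ratio of Pfkp to Pfkm in TAC control thus lay above every value of the other groups. Pfkl stood at 0.0860 to 0.137 of Pfkm in TAC dantrolene, 0.131 to 0.138 in TAC control and 0.0904 to 0.108 in sham control, so that TAC control lay above sham control and TAC dantrolene overlapped it.

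Pygb stood at 0.612, 0.551 and 0.536 of Pygm in TAC dantrolene, 0.616, 0.421 and 0.459 in TAC control, 0.780, 0.625 and 0.705 in sham dantrolene, and 0.650, 0.639 and 0.677 in sham control. Both constricted groups lay below their sham groups, and they overlapped each other. The transporter, hexokinase, aldolase, mutase, enolase, lactate dehydrogenase and lactate carrier pairs overlapped in each of the 4 comparisons of groups. In the hexokinase and lactate dehydrogenase pairs the library apart held the highest ratio of every group.

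**Figure D3:**
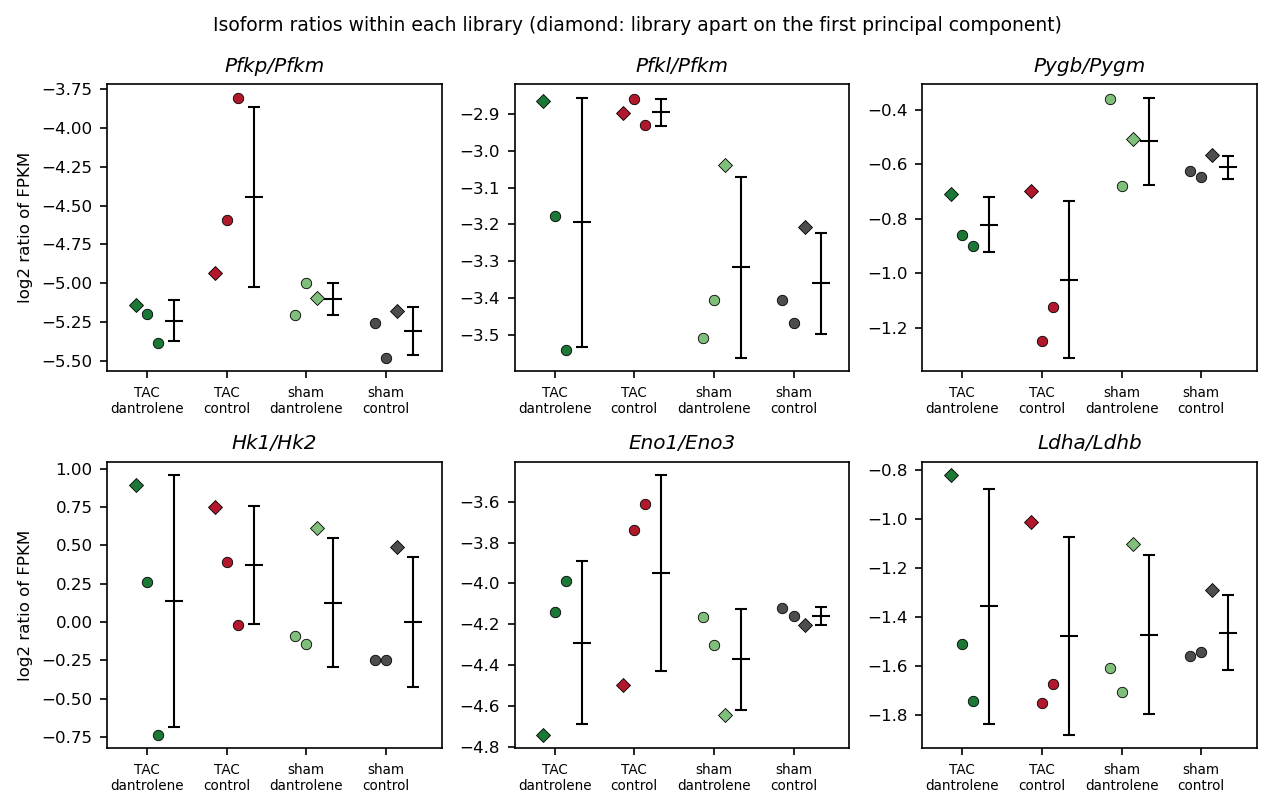
Log2 ratio of FPKM of 2 isoforms on the vertical axis for 6 pairs in the 12 libraries; points are mice, diamonds the library of each group that stands apart, and bars the mean with 1 SD. Pfkp over Pfkm in TAC control (mean -4.44) lies above sham control (mean -5.31), and Ldha over Ldhb is highest in the diamond of each group.

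In sham hearts given dantrolene, the genes leaned lower. Sham dantrolene over sham control gave 23 fold changes below 0 and 10 above, where 52.5% of all genes were above, with a median log2 fold change of -0.15 beside 0.02 over all genes. No gene of the 33 passed an unadjusted p of 0.05 in edgeR, against 0.715% of all genes, and none lay wholly above sham control, against 2.99%. The 10 genes whose sham dantrolene values lay wholly below sham control, against 4.38% of all genes, were Slc2a4, Gpi1, Pfkl, Pfkfb2, Aldoa, Eno1, Pkm, Pygm, Gys1 and Pdk2. The same 3 sham control mice serve here and in the comparison with TAC control. Marker lists shifted here as well. Neutrophil (median log2 fold change 1.62), epicardial and mesothelial (1.45) and adipocyte markers (1.04) were each above 0 in 6 of 6 genes. Fibroblast markers were above 0 in 8 of 8 (0.30), and erythroid markers below 0 in 6 of 6 (-0.47). The part of these in the members' values was not tested. Pfkfb2 gave the largest size, with 5.22, 5.20 and 2.27 CPM in sham dantrolene and 8.08, 11.4 and 5.59 in sham control, a log2 fold change of -0.98 ± 0.65. In the paired fit it was -1.01 ± 0.22 (edgeR, unadjusted p = 0.00112, adjusted p = 0.9988), the 1 member past the unadjusted threshold, against 1.24% of all genes lower.

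The interaction asks whether dantrolene moved a gene more in constricted than in sham hearts. It was above 0 in 26 of the 33 genes, against 49.5% of all genes, with a median of 0.46 on the log2 scale beside -0.01 over all genes. Phkg1 passed the unadjusted threshold at 0.93 ± 0.40 (edgeR, unadjusted p = 0.0370, adjusted p = 0.9995), against 1.55% of all genes higher, and none passed it lower, against 1.27%. Gys1 had 1.06 ± 0.51, Pygb 0.87 ± 0.42 and Slc2a4 0.73 ± 0.37, which did not pass it in this unpaired fit. In the paired fit 13 members passed it higher, against 6.21% of all genes, among them Pfkfb2 (1.83 ± 0.31; edgeR, unadjusted p = 0.000185, adjusted p = 0.226), Gys1 (unadjusted p = 0.0112), Pygb (0.0190) and Slc2a4 (0.0382). Ugp2 passed it lower at -0.77 ± 0.33, against 5.43% of all genes, and none of the 33 passed after adjustment.

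TAC dantrolene over sham dantrolene gave 26 fold changes above 0, against 59.9% of all genes, and 7 below, with a median log2 fold change of 0.22 beside 0.08 over all genes. No gene passed an unadjusted p of 0.05 in edgeR, against 1.71% of all genes; Pkm lay wholly above, against 2.9%, and Pfkfb3 wholly below, against 1.96%. Phkg1 had a log2 fold change of -0.16 ± 0.28 and Pygb of -0.10 ± 0.30 here. Pooled over drug, all TAC over all sham had 16 of the 33 above 0, against 56.8% of all genes, and a median log2 fold change of -0.01 beside 0.06 over all genes, with Ugp2 higher at 1.03 ± 0.38 and Phkg1 and Pygb lower at -0.62 ± 0.20 and -0.53 ± 0.21 by unadjusted p, against 4.77% and 2% of all genes. Pooled over surgery, all dantrolene over all control had 20 of the 33 above 0, against 56.7% of all genes, and a median of 0.05, with Phkg1 at 0.49 ± 0.20 and Pfkfb1 at 0.58 ± 0.25 higher by unadjusted p, against 0.461% of all genes, and none lower, against 0.581%.

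Part of the spread within groups went with the libraries apart, which were defined from these same counts, and with the length of the transcript. The slope of log2 level on log2 gene length was -0.37 in TAC dantrolene 1, -0.32 in TAC control 1 and -0.21 in sham dantrolene 3. It was only -0.065 in sham control 3, beside -0.02 in TAC control 2, which does not stand apart. Tpi1, Eno3 and Ldha were highest in the library apart of all 4 groups, 9.09% of the 33 against 17.2% of all genes. Hk1, Hk2, Pfkfb2, Slc16a1, Gys1, Gbe1, Ugp2, Phka1 and Pdk1 were lowest in it in all 4, 27.3% against 18.6%. Across the 33 genes, the difference between the library apart and the other 2 of its group correlated with annotated exon length at a Spearman rho of -0.53, and across 14911 genes at -0.40; genes share the same libraries and are not independent. Phkg1, with 6509 exon bases, stood at -0.36 and Pygb, with 4809, at -0.16 in this mean log2 difference, against -1.40 for Hk2 and 0.99 for Tpi1.

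**Figure D4:**
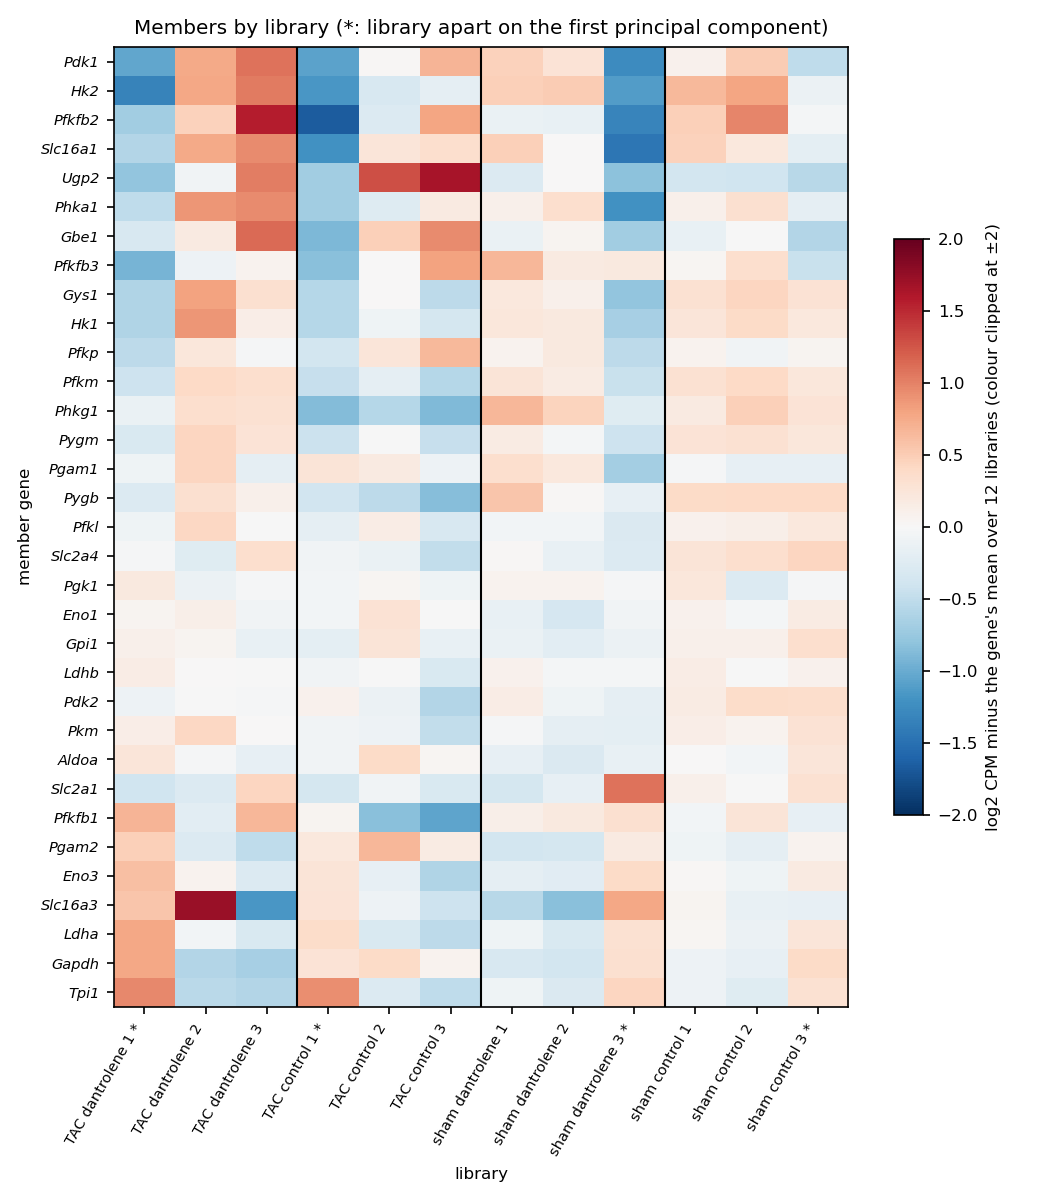
Log2 CPM minus the gene's mean over the 12 libraries (colour, clipped at 2 in each direction) for the 33 tested genes, ordered from those lowest to those highest in the libraries apart, which carry an asterisk. Hk2 is blue and Tpi1 red in the starred columns of the constricted hearts, and Phkg1 is blue in the 3 TAC control columns.

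**Figure D5:**
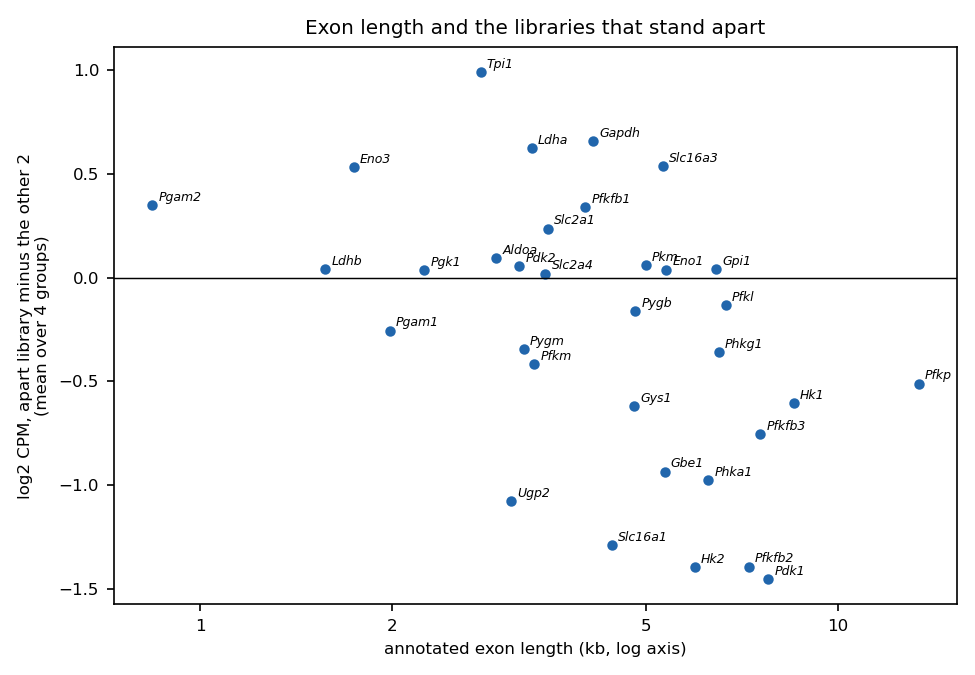
Mean log2 difference between the library apart and the other 2 of its group (vertical axis) against annotated exon length in kilobases (horizontal log axis), 1 point a gene. Pgam2, with 840 bases, stands at 0.35 and Pdk1, with 7779 bases, at -1.45.

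When the 4 libraries apart were left out, a choice made after seeing the data that leaves 2 mice a group, edgeR called 3.21% of all genes in TAC control over sham control and 4 of the 33: Ugp2 higher at 1.84 (adjusted p = 0.0251), and Hk2 at -0.99 (0.0303), Pygb at -1.09 (0.0350) and Phkg1 at -1.08 (0.0379) lower. In TAC dantrolene over TAC control it called 3.17% of all genes and 3 of the 33, Hk2 at 1.16 (adjusted p = 0.0237) and Phkg1 at 1.04 (0.0432) higher and Gapdh at -0.85 (0.0468) lower. With all 12 libraries and a term for standing apart, edgeR called none of the 33.

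In the edgeR fit of all 12 libraries as 4 group means, the lists of related genes outside the set each had 0 genes past the adjusted threshold. This does not extend to the other fits, whose calls in these lists are not reported here. Of 12 tested genes for other isoforms of the pathway, 8 had fold changes below 0 in TAC control over sham control and 8 above 0 in TAC dantrolene over TAC control. Among 18 transcription factors of glycolytic genes, 13 had fold changes below 0 in TAC control over sham control and 15 above 0 in TAC dantrolene over TAC control. Klf15, a glucocorticoid-responsive factor that promotes Slc2a4 transcription, had 25.6, 41.4 and 54.4 CPM in TAC dantrolene, 19.2, 22.7 and 28.1 in TAC control, 22.9, 32.0 and 36.5 in sham dantrolene, and 38.7, 63.7 and 48.9 in sham control. TAC control and sham dantrolene each lay wholly below sham control, at log2 fold changes of -1.11 ± 0.32 and -0.73 ± 0.32. TAC dantrolene overlapped TAC control, at a log2 fold change of 0.79 ± 0.32 over it. The 10 genes of the NADH shuttles, which carry glycolytic electrons into the mitochondrion, were below 0 in 10 in TAC control over sham control and above 0 in 10 in TAC dantrolene over TAC control, where 42.8% and 51.8% of all genes were.

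Of 19 genes of insulin and AMPK signalling to GLUT4, Prkab1, an AMPK subunit, had 24.7 to 34.7 CPM in TAC control against 49.5 to 53.2 in sham control, a log2 fold change of -0.85 ± 0.22. Irs2, an insulin receptor substrate, reached 51.2 CPM in TAC dantrolene 2 and at most 3.76 in the other TAC libraries, and its log2 fold change of 3.89 ± 1.33 over TAC control came to 0.68 without that library. Pcx, the pyruvate carboxylase gene, had 39.5 to 57.7 CPM in TAC dantrolene, 22.4 to 35.4 in TAC control and 39.0 to 50.3 in sham control. Among 15 hypoxia response genes outside glycolysis, 11 were above 0 in TAC control over sham control; P4ha1, a collagen prolyl hydroxylase that fibroblasts also express, had 22.0, 60.7 and 44.4 CPM in TAC control against 16.1 to 18.4 in sham control, higher in the libraries with the high fibroblast sums, and their part in it was not tested. Other glycogen enzymes, with 9 of 18 above 0, and the genes of pyruvate entry, with 7 of 13 above 0, showed no common direction in that comparison. Of the pentose phosphate and hexosamine branches 10 of 15 genes were above 0, and of fatty acid uptake and oxidation 16 of 24 below 0, with 57.2% and 42.8% of all genes on those sides.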

How the data were processed

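Poly(A) RNA from 12 left ventricles was made into directional libraries and read as 150 nt pairs, per the labels' protocols. The deposited tables hold whole-number read counts per gene and FPKM values per gene, both by the authors; the submitters' processing notes name TopHat2, edgeR and GRCm38, and no source used here gives the counting tool, annotation or strand setting. FPKM matched a constant multiple of counts within 0.05 log2 in 100% of the 1424 genes checked. Counts were fitted with edgeR 4.0.16 (R 4.3.3; TMM, filterByExpr with a minimum count of 10, robust glmQLFit, glmQLFTest) as 4 group means with 8 residual degrees of freedom, and p-values were adjusted by Benjamini-Hochberg over 14965 genes at a threshold of 0.05; the biological coefficient of variation was 0.443. Log2 FPKM with a pseudocount of 1 went through limma 3.58.1, and DESeq2 1.42.0 was run as an alternative. Exon lengths and overlaps come from GENCODE vM21.

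The members and gene lists were chosen with earlier results of these data known. Per-library values are given for 12 members of the main cardiac route and for members with the lowest p in a comparison, and up to 4 genes of each other list by p. Same-numbered mice within a surgery arm deviated from their group means together (correlations of 0.30 to 0.67). Across arms mouse 2 did so as well (0.28 and 0.27), while mice 1 and 3 did not (-0.38 to -0.29). The libraries apart share a number within each arm, 1 in the TAC arm and 3 in the sham arm. The labels name no pairing, and the numbers were taken to pair the drug comparisons from these same correlations. With 3 mice a group an exact permutation test cannot go below p = 0.1, so none is given. The fit was tested on simulated counts with known folds. These counts held no library standing apart and no effect of transcript length, so they cannot show how the fit handles either. Results of some genes of the isoform list are not reported here.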

Additional observations from a re-analysis of the deposited data

How the results depend on the processing

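Over 74 results, 11 alternatives and the leaving out of each library in turn were run. No alternative that kept all 12 libraries called a member: DESeq2, limma on FPKM, other filters and scalings, a gene length offset, and a term for the libraries apart each called 0. The paired fits, with a replicate block, also called 0 members after adjustment, but the block within surgery arm raised the members past an unadjusted p of 0.05 to 11 in TAC dantrolene over TAC control, 1 in sham dantrolene over sham control and 14 in the interaction, against 2, 0 and 1 without it. Without the 4 libraries apart, edgeR called 4 members in TAC control over sham control, 3 in TAC dantrolene over TAC control and 1 in all TAC over all sham, Ugp2, from 2 mice a group; the cause was not tested.

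On log2 FPKM, which carries no TMM scaling, the member medians were -0.47 in TAC control over sham control, 0.61 in the interaction and -0.17 in all TAC over all sham. The main fit gave -0.20, 0.46 and -0.01. The medians of all genes were -0.14, 0.18 and -0.08 on log2 FPKM and 0.10, -0.01 and 0.06 in the main fit. Members and all genes thus shifted alike between the 2 fits, and the member medians stayed further from 0 than those of all genes on log2 FPKM. Leaving out 1 library moved the median of sham dantrolene over sham control between -0.28 and -0.15. Slc2a1 changed sign most: in sham dantrolene over sham control it was -0.025 on log2 FPKM, -0.28 without the libraries apart and -0.39 to 0.45 over the single omissions, and in TAC dantrolene over sham dantrolene 0.34 and -0.67 to 0.22, turning with sham dantrolene 3. In all TAC over all sham it was 0.045 without the libraries apart. Phkg1 in TAC dantrolene over sham dantrolene ranged from -0.38 to 0.044, and the interaction of Pgam2 was 0.061 with a gene length offset. The causes were not tested. DESeq2 called 83, 12, 0, 4, 1, 55 and 1 genes in the 7 comparisons in which edgeR called 0, none a member. Phkg1 rests on 156 to 756 reads a library.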
